A study of Homo sapiens with 6 samples.

Results

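The regions described here are 375 stretches of open chromatin that had an ATAC-seq peak in 3 of 3 vector libraries and in 0 of 3 MyoD-deleted libraries of RH30 cells, and that carried the E-box CAGGTG, on either strand, but not the palindromic E-box CAGCTG within 100 bp of the summit. They were chosen by these peak calls and by these letters, so their presence in vector libraries and absence from MyoD-deleted libraries is a description and not a result. Merging the overlapping peaks of all 6 libraries on chromosomes 1 to 22 and X gave 105441 regions. Of these, 1876 (1.78%) were lost, meaning that they were called in 3 of 3 vector and 0 of 3 MyoD-deleted libraries. The members made up 19.99% of the lost regions, while 1027 other lost regions held CAGCTG and 474 held neither E-box. The same E-box rule held in 12167 of the 105441 regions and in 10.9% of those called in all 6 libraries. Of the 12167, 3.08% were lost, beside 1.78% of all regions. The label "only non-palindromic E-boxes" was not strictly met, because 37 members (9.87%) held a palindromic E-box with another centre, such as CATATG in 20 members and CACGTG in 12.

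RH30 is an established cell line of fusion-positive rhabdomyosarcoma, a tumor that expresses skeletal muscle factors without completing differentiation. All 6 libraries came from cells given Cas9. The vector group received a scramble guide RNA and the MyoD-deleted group guides against MyoD, with 3 biological replicates each, and open chromatin was tagged with the Tn5 transposase from cells that had been frozen. The sources used here do not state whether the MyoD-deleted cells were clones or pools. The study's text names the ATAC-seq cells both as RH30 and as a derivative carrying an inhibitor of NF-κB, and which of these applies to both groups was not settled here. Promoters of MYOD1, MYOG, DES, MYF5, PAX3, FGFR4, CDH15, CHRND and MYMK were open in 6 of 6 libraries, whereas MYF6, PTPRC, CD3E, SPI1, PECAM1, CDH1, SOX10 and NEUROD1 were called in 0 of 6. CDH5, an endothelial marker, was called in 0 vector and 3 MyoD-deleted libraries, KRT18 in 0 and 2, and EPCAM in 2 and 3. Their part in the results below was not tested.

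MyoD is a basic helix-loop-helix factor that binds DNA as a dimer, usually with an E protein such as TCF3 or TCF12, at E-boxes of the form CANNTG. The bases at the centre of the box and next to it set which dimers bind well. CAGCTG is a frequent site of MyoD in muscle, and CAGGTG is read by MyoD paired with an E protein, by E-protein dimers and by zinc finger repressors of the SNAI and ZEB families. A peak shows that DNA was accessible and does not show which of these proteins was present.

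The sequences of 8 of the 10 members with the highest mean rank in vector libraries follow, 30 bases each with the E-box in capitals, because the bases next to the box carry the pattern reported below. They were read from GRCh38 (hg38) on the plus strand, 5′ to 3′, and are the reference sequence rather than that of RH30. Each is named by the gene with the nearest protein-coding 5′ end. A box written CACCTG reads CAGGTG on the minus strand.
ATPAF1, chr1:46689572-46689601: agagataaaaagCACCTGtttcaaattctc
ARPP21, chr3:35505431-35505460: acttgattccaaCAGGTGtcccccatatcc
ANGPT4, chr20:897658-897687: caattgcagggaCACCTGctttggctgctc
PCDH18, chr4:137032412-137032441: ttggacatctgaCAGGTGcattgtggtggt
EI24, chr11:125580019-125580048: attggagagtgaCAGGTGaatggtgctagg
FAM120B, chr6:170081316-170081345: gctcagccctcaCACCTGttcacagagaga
BRD1, chr22:49346074-49346103: ggctaaagctaaCAGGTGccagctcccacc
FLT3, chr13:28067514-28067543: cacgttcttcacCACCTGgcagagctgagt

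Members had low to middling peaks. The deposited fold enrichment of a peak is its height over the local background of the same library, and its percentile rank within that library places it between 0 and 100. The median rank of the 375 members was 33.5 in vector replicate 1, 27.1 in replicate 2 and 25.2 in replicate 3. Lost regions with CAGCTG had medians of 33.5, 28.9 and 28.9 in the same libraries, and distal regions that were called in all 6 libraries and met the same E-box rule had 59.5, 53.1 and 55.3. Distal means more than 2 kb from a protein-coding 5′ end. Of the members, 258 (68.8%) ranked under 50 in each vector library and 28 (7.47%) over 50 in each. The median number of fragments piled up at the summit, recovered from the deposited fold enrichment and −log10 p, was 28, 19 and 21, with extremes of 9 and 176. In 259 members (69.1%) the −log10 q reached 5 in all 3 vector libraries, and the lowest in any of them was 1.47.

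**Figure D1:**
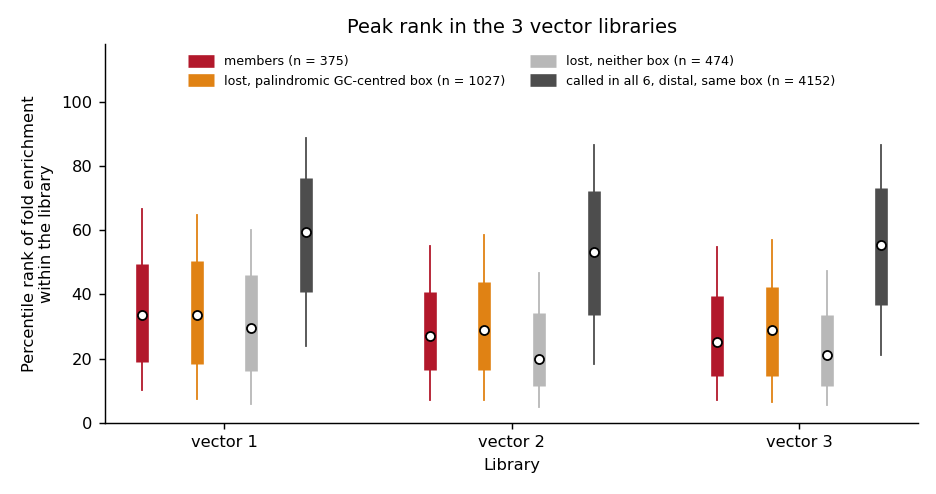
Percentile rank of the fold enrichment within each vector library (y axis) for 4 sets of regions. Bars span the middle 50% of regions, lines run from the 10th to the 90th percentile and circles are medians. Members sit beside the other lost regions in each library, with medians of 33.5, 27.1 and 25.2, and below distal regions called in all 6 libraries.

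The vector libraries were uneven, with 74041, 63068 and 64602 peaks against 73673 to 80530 in MyoD-deleted libraries. The number of reads behind a library is unknown from peak lists, and the smallest local background, which follows depth, was 3.41, 2.22 and 2.74 fragments in vector libraries and 2.27 to 2.35 in MyoD-deleted libraries. A region without a call in MyoD-deleted libraries has no value there, so its level cannot be given. The lowest pileup called in a MyoD-deleted library was 8 fragments. The boundary of the set was narrow: 255 regions with the same E-box rule were called in 3 vector and 1 MyoD-deleted library, and 402 in 2 vector libraries and 0 MyoD-deleted libraries. Just inside, a member near AKR1C3 had a −log10 q of 11.2, 4.97 and 1.47 in vector replicates 1, 2 and 3. Just outside, a region near GOT2 had 12.1, 5.78 and 9.58 and was called in 1 MyoD-deleted library at 1.38.

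The highest member lay in intron 6 of EFCAB14, 15.7 kb from the 5′ end of ATPAF1, an assembly factor of the mitochondrial ATP synthase (chr1:46689250-46690060). Its ranks were 90.3, 86.5 and 76.3 in vector replicates 1, 2 and 3, with 68, 43 and 39 fragments at the summit. The next was intergenic, 134 kb from ARPP21, which encodes a cAMP-regulated phosphoprotein, with ranks of 74.5, 83.5 and 89.1. A member in intron 1 of ANGPT4, a ligand of the TIE2 receptor, varied least among the first 3, with ranks of 81.0, 79.7 and 82.9. The member nearest PTPRO, a receptor tyrosine phosphatase, lay in an intron of RERG and had ranks of 86.7, 79.7 and 74.4. FLT3, a receptor tyrosine kinase of blood progenitors, had a member in intron 2 with ranks of 73.0, 71.1 and 69.6. Replicates agreed less for the member 209 kb from FAM120B, at 52.5, 87.8 and 78.6, and for that 482 kb from BRD1, at 88.7, 52.4 and 74.5.

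The 201 bases around the summits of the members nearest ATPAF1 and TPM3 are shown whole because both held a pair of boxes, as did 44 of the 375 members (11.7%). 329 members (87.7%) held a single box and 2 held 3 or more. In the 46 members with several boxes, the closest pair started 9 to 163 bp apart, with a median of 57 bp.
ATPAF1, chr1:46689461-46689661: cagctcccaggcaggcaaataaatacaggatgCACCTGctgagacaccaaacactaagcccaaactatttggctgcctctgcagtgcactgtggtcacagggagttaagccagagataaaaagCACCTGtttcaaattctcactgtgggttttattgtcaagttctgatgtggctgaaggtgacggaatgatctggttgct
TPM3, chr1:154186369-154186569: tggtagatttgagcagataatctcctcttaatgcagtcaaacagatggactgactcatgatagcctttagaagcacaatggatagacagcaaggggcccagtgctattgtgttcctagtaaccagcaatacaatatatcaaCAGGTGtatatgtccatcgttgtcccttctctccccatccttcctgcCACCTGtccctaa

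The bases next to the box were shared out differently in members than in other regions with the same box. With the core read as CAGGTG and the box nearest the summit taken, AA stood directly before it in 142 members (37.9%), against 12.3% of the 4152 distal regions called in all 6 libraries under the same E-box rule and 3.13% of the 319 gained regions under that rule. Gained regions were called in 3 of 3 MyoD-deleted and 0 of 3 vector libraries. GA stood there in 16.0% of members, 6.79% of distal regions called in all 6 and 3.76% of gained regions. A pair of purines preceded the core in 288 members (76.8%), in 47.3% of distal regions called in all 6 and in 29.2% of gained regions. A pyrimidine stood directly before the core in 15.7%, 37.9% and 55.2% of these sets. On the other side, C followed the core in 37.6% of members, 25.6% of distal regions called in all 6 and 19.4% of gained regions, and A followed it in 8%, 14.2% and 29.8%. AA before the core was not particular to the members. Counted at any box and on either strand, AACAGCTG lay in 329 of the 1027 lost regions with CAGCTG (32.0%). It lay in 2606 of the 13292 regions with CAGCTG called in all 6 libraries and in 48 of the 635 gained ones. CAGCTG reads the same on both strands, so AA was counted on either side of it, which CAGGTG does not allow. Shares of these boxes are therefore not alike. By the same count AACAGGTG lay in 150 of the 375 members (40%). It lay in 11.1% of the 5208 regions called in all 6 libraries under the members' E-box rule. AACAGGTG lay in 94 of the 335 lost regions that held both boxes. Regions are not replicates of a condition, and these shares are descriptions with no test.

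**Figure D2:**
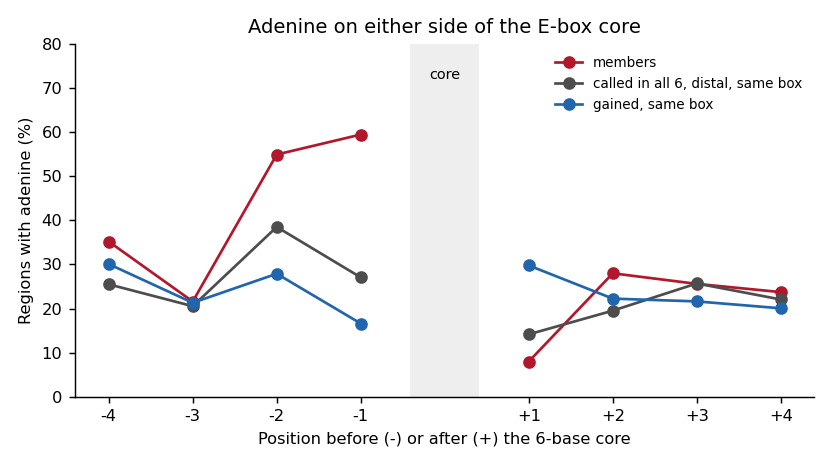
Share of regions with adenine (y axis, percent) at each of 4 positions before and after the 6-base core read as CAGGTG (x axis) for members, for distal regions called in all 6 libraries and for gained regions, all under the same E-box rule. Members stand highest at the 2 positions before the core, with 54.9% and 59.5%, and lowest directly after it, with 8%.

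The most frequent form was AACAGGTGCT. It was the form of the nearest box in 36 members (9.60%), in 1.73% of distal regions called in all 6 libraries and in 0 of 319 gained regions. AACAGGTGCA came next with 15 members and AGCAGGTGCA with 13. The forms AGCAGGTGGC and ACCAGGTGGC, which resemble the core of the CTCF motif, were found in 8 members (2.13%), in 8.53% of distal regions called in all 6 and in 4.39% of gained regions.

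Part of the first form was repeated sequence. In 11 members the 18 bases around the nearest box were the same, and they occurred 14937 times in the reference chromosomes. A second run of 18 bases, shared by 3 members, occurred 333 times. No repeat annotation was used here. The members nearest PTPRO and ARRDC4, both among the 10 highest, carried such a run.

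The 14 members with either run were spread over 12 chromosomes and lay in introns or between genes. Their mean ranks in vector libraries ran from 9.71 to 80.2 with a median of 29.3, and the other 361 members had the same median. The run with 14937 copies lay at the nearest box of 103 of the 12167 regions that met the E-box rule, of which 11 were lost, 0 gained and 14 called in all 6 libraries. The lost share was thus 10.7%, beside 3.08% of all regions under the E-box rule. Reads from repeated sequence can map to several places, the handling of such reads is not given in the sources used here, and its part in these calls was not tested.

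The flanks were also counted away from repeated sequence. In 52 members (13.9%) the 18 bases around the box occurred 10 times or more in the reference, beside 5.95% of distal regions called in all 6 libraries and 8.15% of gained regions. Without such regions, AA preceded the core in 109 of 323 members (33.7%), in 11.6% of distal regions called in all 6 and in 3.07% of gained regions. AACAGGTGCT was then found in 14 members (4.33%) and in 47 of 3905 distal regions called in all 6.

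Boxes lay somewhat nearer to the summit in members. The centre of the nearest box was a median of 42.5 bp from the summit in members, 46.5 bp in distal regions called in all 6 libraries and 54.5 bp in gained regions under the same rule. It was within 50 bp in 62.1%, 54.0% and 45.5% of them. The summits of the 3 vector libraries lay within 100 bp of each other in 238 members (63.5%), with a median of 71 bp between the outermost, so single distances carry an error of this order.

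**Figure D3:**
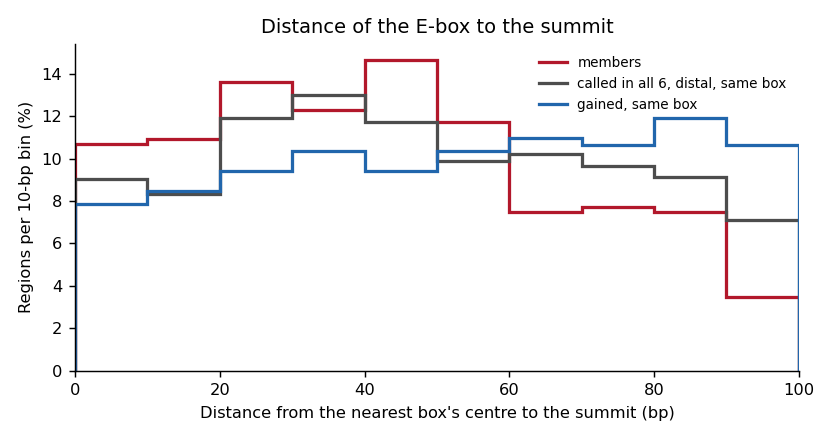
Share of regions per 10-bp bin (y axis, percent) by distance from the centre of the nearest CAGGTG box to the summit (x axis, bp) for members, distal regions called in all 6 libraries and gained regions under the same E-box rule. Members are most frequent at 40 to 50 bp, with 14.7%, and fall to 3.47% beyond 90 bp, where gained regions have 10.7%.

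Other motifs were searched in the same 201 bases on both strands and counted beside all 105441 regions. AACCACA, a RUNX motif, lay in 49 members (13.1%) and in 8.93% of all regions, and in 0 of the 49 did it occur only where it shared bases with the E-box. It lay in 7.59% of lost regions with CAGCTG and in 8.65% of those with neither box. The member nearest PTPRO, with the run of 14937 copies, held it as well. It was not counted without repeated sequence, so the part of repeats in this share is unknown. TGACTCA or TGAGTCA, the AP-1 motif of the FOS and JUN factors, lay in 13.6% of members, 17.9% of all regions and 30.1% of gained regions under the same E-box rule. GGAATG, the TEAD motif, was at 17.3% in members and 17.3% in all regions. A further non-palindromic E-box lay in 68.5% of members and 50.3% of all regions, among them CAGATG in 24.5% and 17.5%, and CAAATG in 19.5% and 12.6%. Among the other lost regions, a further non-palindromic E-box lay in 62.5% where CAGCTG was present and in 66.7% where neither box was, and CAGATG in 25.3% and 28.5%. The MEF2 motif was found in 4 members (1.07%) and 0.607% of all regions. Motifs of a homeobox family (TCAGGTT), FOX (GTAAACA), SOX (ACAAAG), ETS (CCGGAAGT) and PAX factors (the paired motif GTCACG) lay in 2.67%, 3.20%, 13.1%, 0.267% and 3.20% of members, beside 2.49%, 2.53%, 14.3%, 0.899% and 3.97% of all regions. A match of letters is not a bound site.

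Members were distal. Only 8 (2.13%) had the summit within 2 kb of a protein-coding 5′ end, beside 22.2% of regions called in all 6 libraries and 1.95% of lost regions with CAGCTG. The median distance to a 5′ end was 66.6 kb. By their summits, 187 lay in introns, 177 between genes, 6 in UTRs and 5 in coding exons. Their median GC content over 201 bases was 46.3%, against 49.8% in lost regions with CAGCTG and 53.2% in distal regions called in all 6 under the same E-box rule. Of the members, 6 lay within 50 kb of another member, 22 within 50 kb of a lost region with CAGCTG and 70 within 50 kb of a gained region. No background share is given for these counts, so they do not show whether members were scattered more than other regions. The X chromosome had the highest share of its regions among the members, 21 of 2943 (0.714%), and chromosome 16 the lowest, 7 of 3436 (0.204%).

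Members were then assigned to genes. A gene was counted when a member lay in its body, or within 100 kb of its 5′ end with no other protein-coding 5′ end nearer. By this rule 342 of 19962 protein-coding genes (1.71%, or 1.89% of the 18133 with any region) had a member, and 7 of 235 genes (2.98%) in 9 lists of myogenic, sarcomere, neuromuscular, metabolic, rhabdomyosarcoma and related genes. Listed genes had a median of 7 open regions and genes with any region a median of 4. The 7 genes were MEF2C of 21 myogenic and MEF2 factors, TPM3, TTN and MYL6B of 65 sarcomere genes, RAPSN of 19 neuromuscular junction genes, ITGA9 of 26 fusion and adhesion genes and ENO3 of 27 muscle metabolism genes and kinases. None of 20 E proteins and inhibitory factors, 26 excitation-contraction genes, 23 targets of the rhabdomyosarcoma fusion or 8 DNA methyltransferases and death genes had one. Their boxes are shown because the rule assigns each to a listed gene.
MEF2C, chr5:88904152-88904181: caggccgaggtgCACCTGtttctgtcactc
TPM3, chr1:154186498-154186527: acaatatatcaaCAGGTGtatatgtccatc
MYL6B, chr12:56154575-56154604: gagggagggaaaCAGGTGgcatgggattaa
TTN, chr2:178908973-178909002: gaagagcatggcCACCTGgtgcctgtcatt
RAPSN, chr11:47502952-47502981: gcctcttttcatCACCTGttcctttcactc
ITGA9, chr3:37752191-37752220: tgctcactgggtCAGGTGtgattcagagct
ENO3, chr17:4945510-4945539: gaggggcagggcCACCTGgccagaagctca

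MEF2C encodes a transcription factor that acts with MyoD-family factors at muscle genes. Its member (chr5:88903748-88904823) lay 0.117 kb from the annotated 5′ end, inside the gene on the minus strand, and was 1 of the 8 members near a promoter. Its ranks were 38.8, 27.1 and 39.5 in vector replicates 1, 2 and 3, with 24, 16 and 22 fragments at the summit. The box followed AA when read as CAGGTG and lay 26.5 bp from the summit.

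TPM3, a tropomyosin of slow fibers, had its member in intron 2 (chr1:154186174-154186967), 8.18 kb from the 5′ end. It had 176, 124 and 148 fragments at the summit in vector replicates 1, 2 and 3, far above the members' medians, but ranks of only 37.6, 35.3 and 35.4, since fold enrichment divides by a local background. The same held for the member in intron 2 of MYL6B, a myosin light chain, with 161, 145 and 173 fragments and fold enrichments of 3.81, 5.14 and 4.63. It also held 2.64 kb from ENO3, the muscle form of enolase, where 123, 97 and 119 fragments gave fold enrichments of 2.22, 2.56 and 2.30.

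The other 3 were weaker. The member assigned to TTN, the giant spring of the sarcomere, lay 78.2 kb from its 5′ end in intron 7 of CCDC141, with 23, 18 and 14 fragments in the vector libraries. RAPSN, which clusters acetylcholine receptors at the synapse, had its member 53.8 kb away in intron 1 of CELF1, with 17, 26 and 20 fragments. ITGA9, an integrin chain, had its member in intron 23, with 22, 25 and 21 fragments. No gene had 3 members. 7 had a pair by nearest 5′ end, among them LAMA2, a laminin chain of the muscle basement membrane, TLE4 and TSHZ3. The LAMA2 pair lay 12.2 kb from the 5′ end, with ranks of 50.4, 46.8 and 65.2, and in intron 3, with ranks of 50.4, 46.8 and 24.4, the latter at the run with 14937 copies.

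The same box was then examined outside the members, in regions called in all 6 libraries. They have a fold enrichment in every library, and the rank of each was compared between MyoD-deleted and vector libraries with limma. Of 47847 such regions, 2235 (4.67%) ranked lower and 1973 (4.12%) higher in MyoD-deleted libraries at an adjusted p under 0.05. Among 5208 of them that met the members' E-box rule, 382 (7.33%) ranked lower and 129 (2.48%) higher. The lower share was 3.30% without vector replicate 2, 3.802% without vector replicate 3, 4.26% without MyoD-deleted replicate 1 and 3.48% without MyoD-deleted replicate 2. Over all regions it was 1.73%, 2.12%, 2.43% and 1.81%. The higher share was 0.653%, 0.979%, 0.826% and 0.422% in the same fits, against 1.43%, 1.76%, 1.86% and 1.11% over all regions. Ranks give each library the same overall level, so changes are relative to other regions.

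The bases before the core divided these regions as well. That division was made after the flanks of the members had been seen, and in the same 6 libraries, but in regions that are not members. The box of a region was read at the summit of its highest peak over the 6 libraries. Which group supplied that summit can depend on the change in rank, so the E-box classes are not independent of the contrast. The size of this effect was not tested. With AA before CAGGTG, 125 of 554 regions (22.6%) ranked lower and 6 (1.08%) higher. With GA before it, 59 of 333 (17.7%) ranked lower and 2 higher, and with AG 70 of 789 (8.87%) ranked lower and 10 higher. With GG, 36 of 636 (5.66%) ranked lower, near the share over all regions, and 12 (1.89%) higher, below the 4.12% over all regions. Where a pyrimidine stood directly before the core, 67 of 2067 (3.24%) ranked lower and 72 (3.48%) higher, both below the shares over all regions. These shares take no account of GC content, by which they are split further below. Regions with CAGCTG ranked lower in 9.48% and those with neither box in 2.02%. The AA share was 11.9% without vector replicate 2, 14.3% without vector replicate 3, 14.3% without MyoD-deleted replicate 1 and 12.5% without MyoD-deleted replicate 2, against 1.73% to 2.43% over all regions in the same fits. In these 4 fits the lower share was 6.91% to 9.01% with GA, 3.68% to 5.07% with AG, 2.04% to 2.99% with GG and 1.31% to 1.89% with a pyrimidine, with the lowest value for GA and AG without vector replicate 2. It was 3.49% to 5.01% with CAGCTG and 0.654% to 0.934% with neither box. With the replicate number as a block, the lower share was 17.5% with AA, 11.4% with GA and 6.46% with AG. In that fit it was 3.62% with GG and 2.23% with a pyrimidine, against 3.16% over all regions. With log2 summit heights, centred within each library, in place of ranks, 48.6% of AA regions were lower, against 12.8% of all regions.

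**Figure D4:**
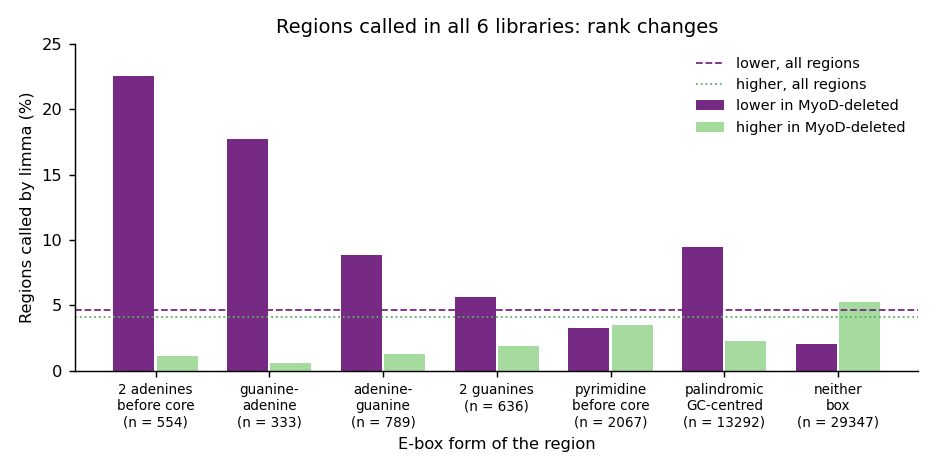
Share of regions called in all 6 libraries (y axis, percent) that ranked lower or higher in MyoD-deleted libraries (limma), by the bases before the CAGGTG core or by another E-box class (x axis, with n). Dashed and dotted lines mark 4.67% and 4.12%, the shares over all regions. The share that ranked lower is 22.6% with 2 adenines before the core and 3.24% with a pyrimidine.

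The median rank of the 554 regions with AA, among regions called in all 6, was 53.4, 53.2 and 51.2 in vector replicates 1, 2 and 3. It was 32.7, 31.0 and 33.2 in the MyoD-deleted replicates. Each MyoD-deleted library lay below each vector library, with a difference of −20.3 percentile points between the means, 32.3 ± 1.15 against 52.6 ± 1.23 (SD, n = 3; two-sided exact permutation test, p = 0.1, adjusted p = 0.125 over 15 tests), and 3 libraries against 3 allow no p below 0.1. Regions with a pyrimidine before the core had medians of 41.6, 42.2 and 43.9 in vector and 44.7, 45.0 and 44.5 in MyoD-deleted libraries. The difference between these 2 classes was 10.1 ± 2.41 points in vector and −12.4 ± 1.42 in MyoD-deleted libraries (SD, n = 3; exact two-sided permutation test, p = 0.1, adjusted p = 0.125). All 5208 regions under the E-box rule together moved by −3.70 points, from 45.7 ± 1.11 to 42.0 ± 0.459 (SD, n = 3; two-sided exact permutation test, p = 0.1, adjusted p = 0.125).

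**Figure D5:**
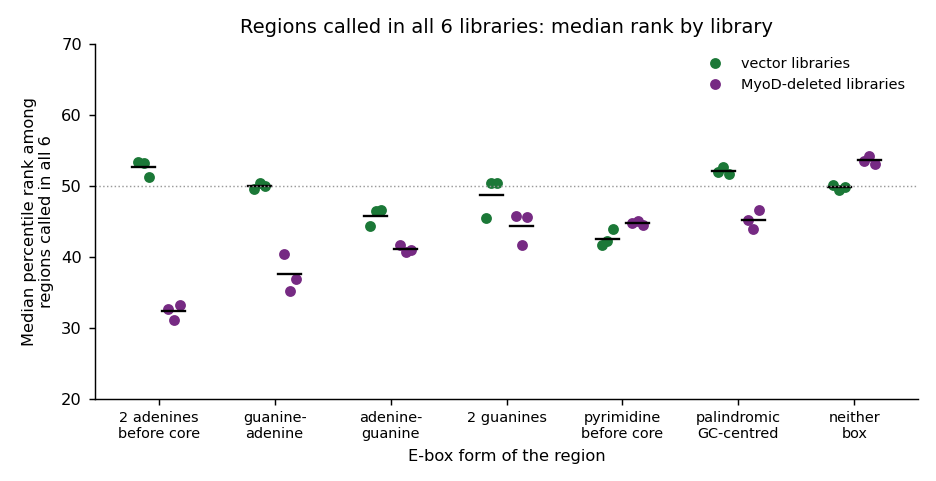
Median percentile rank among regions called in all 6 libraries (y axis) of each vector and MyoD-deleted library (points, mean as a bar), by the bases before the CAGGTG core or by another E-box class (x axis). With 2 adenines before the core, vector libraries lie at 51.2 to 53.4 and MyoD-deleted libraries at 31.0 to 33.2, and with a pyrimidine MyoD-deleted libraries lie slightly above.

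Forms followed the same order. The 78 regions with AACAGGTGCT had median ranks of 61.4, 59.0 and 58.7 in vector and 34.1, 35.9 and 35.4 in MyoD-deleted libraries, and 20 of them (25.6%) ranked lower and 0 higher. The lower count was 8 (10.3%) without MyoD-deleted replicate 1 and 8 without MyoD-deleted replicate 2, 9 without vector replicate 2, 10 without vector replicate 3 and 11 with the replicate number as a block. Over all regions the lower share was 4.67% in the main fit, 1.73% to 2.43% without 1 of these libraries and 3.16% with the block. In 25 of the 78 regions with AACAGGTGCT, the 18 bases around the box occurred 10 times or more in the reference. The ranks of this form were not given without them, so the part of repeats is unknown. The 380 with AGCAGGTGGC or ACCAGGTGGC had 35.98, 39.8 and 39.8 against 39.6, 36.7 and 38.9, and the groups overlapped. Of 494 regions with AA whose 18 bases occurred fewer than 10 times in the reference, 109 (22.1%) ranked lower. GC content differed between the classes, with a median of 48.8% for AA and 57.7% for a pyrimidine. Below a GC content of 56.2%, 25.6% of AA regions and 6.13% of pyrimidine regions ranked lower, and at or above it 10.7% and 0.953%. Regions with neither box ranked lower in 2.91% below that GC content and in 0.915% at or above it. In the same order, 7.33% and 2.68% of them ranked higher, beside 3.94% and 3.12% of pyrimidine regions. Away from 5′ ends by more than 2 kb, 24.2% of AA, 3.81% of pyrimidine and 2.52% of neither-box regions ranked lower.

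The 3 regions with the smallest adjusted p in the AA class were picked after their values were seen. The first, 75.8 kb from SMYD2, a lysine methyltransferase (chr1:214204809-214205868), had ranks of 80.5, 69.98 and 71.4 in vector and 12.5, 5.00 and 3.95 in MyoD-deleted libraries (limma adjusted p = 0.0024). A region in an intron 13.6 kb from the 5′ end of TMEM164 (chrX:110015543-110016752) had 51.0, 59.7 and 54.9 against 4.37, 5.00 and 5.36 (limma adjusted p = 0.0024). These 2 carried AACAGGTGCA. A region 214 kb from GPC5, a glypican (chr13:91184162-91185582), had 77.4, 81.7 and 75.3 against 6.01, 19.3 and 12.6 (limma adjusted p = 0.00266) and carried AACAGGTGGC.

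Open regions around the members were called lower and higher at shares somewhat above those over all regions, a difference that was not tested. Of 1021 regions called in all 6 libraries within 50 kb of a member, 61 (5.97%) ranked lower and 61 higher, beside 4.67% and 4.12% over all regions. Their median rank was 44.3, 46.2 and 44.3 in vector and 44.6, 44.3 and 45.0 in MyoD-deleted libraries, which overlapped (exact two-sided permutation test, p = 1).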

How the data were processed

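The 6 ATAC-seq libraries of RH30 cells, 3 vector and 3 MyoD-deleted, were grouped by their labels. Paired-end reads were mapped by the authors to hg38 (Rsubread), limited to proper pairs, and passed to MACS2 separately for each library. For each peak the deposited ratio, its fold enrichment, sets summit height against local background within a library, and the deposited −log10 p and q values describe the same summit. The authors' score column (−log10 q times 10) was read for the check of units and not used further. No read totals are held in the lists, so depth and counting error are unknown, and replicates differ by an unknown mix of culture and technical error. An exclusion list is named in the methods, but when it was applied is not stated. The authors' own test on counts was not used here.

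Peaks on chromosomes 1 to 22 and X that overlapped were merged. E-boxes and motifs were searched within 100 bp of the summit of the peak with the highest fold enrichment. Genes came from GENCODE version 44. Summit pileups were recovered as the whole number that gives both fold enrichment and −log10 p (tolerance 0.01), which failed for 7 peaks and for 0 of the members. The inverse-normal rank of fold enrichment in regions called in all 6 libraries was compared with limma 3.58.1 (lmFit, eBayes with a trend, no block, Benjamini-Hochberg adjustment over 47847 regions, calls at an adjusted p under 0.05), and medians per library by exact two-sided permutation over 20 assignments. The alternatives were equal peak numbers, only peaks that reach a −log10 q of 5, windows around summits as regions, search windows of 50 and 150 bp, other measures, a replicate block and each library left out. The limma step was tested on simulated ranks. Python 3.11.15 and R 4.3.3 were used. Members named are the 10 highest by mean vector rank, those at listed genes and those at thresholds. The members and lists were chosen with earlier results of these data known. Some sequences and 1 gene are not reported here.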

Additional observations from a re-analysis of the deposited data

How the results depend on the processing

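The number of lost regions with the CAGGTG box and without CAGCTG was 375, and 610 with equal numbers of peaks per library, 241 when the rule had to hold at each vector summit, and 427 to 564 with 1 library left out (564 without vector replicate 3, where 2 of 2 vector calls sufficed). Their share of lost regions was 12.8% when the rule had to hold at each vector summit and between 15.5% and 20.7% in the other alternatives, and the share with AA before the core, examined after seeing the data, between 31.6% and 38.2%. The share of regions near members that ranked lower was 5.97%, and 15.5% by rank of −log10 p, 18.6% by centred summit height, 12.4% by uncentred height and 3.92% with the replicate number as a block, against 10.9%, 12.8%, 8.03% and 3.16% over all regions. With 1 library left out it was 1.86% to 5.19%, against 1.73% to 3.99%. For AA regions, alternatives chosen after seeing the data gave 43.5%, 48.6%, 35.2% and 17.5% under the same 4 settings, and 11.9% without vector replicate 2, the lowest with a library left out. Same-numbered libraries did not deviate together (correlations of −0.0409, −0.0976 and 0.0414), so the numbers were not taken as pairs. The unknown depth of each library limits what an absent peak shows.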

Other observations

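Among regions outside the members, the E-box rule held in 19.2% of those called in 2 vector and 0 MyoD-deleted libraries, 17.9% of those in 1 and 0, 16.2% of those in 3 and 1, 16.5% of those in 3 and 2, 11.1% of those in 2 and 3, 10.9% of those in all 6, and 6.63% of those in 0 and 3. The 60 AA regions called in all 6 libraries whose 18 bases occurred 10 times or more in the reference had median ranks of 70.6, 62.0 and 59.7 in vector and 34.6, 37.0 and 31.9 in MyoD-deleted libraries. Of these, 16 (26.7%) ranked lower and 0 higher, by limma.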
